A study of Mus musculus with 7 samples.

Results

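The collagen chain genes were taken as every annotated gene whose symbol is Col, a number, the letter a and a number, which gave 44 of the 32285 genes in the tables. Each was measured by single-nucleus RNA sequencing of the posterolateral cortical amygdala (plCoA), an olfactory area of the ventral forebrain, dissected into an anterior (aplCoA) and a posterior (pplCoA) domain. All mice were C57BL6J males aged 8 weeks. The labels name no transgene or treatment, and by the study's methods the mice of both domains were kept alone and under sensory deprivation in the day before sacrifice. Each of the 3 biological replicates per domain was a pool of tissue from several mice. Replicate 1 of aplCoA was sequenced as 2 libraries, which were added together. The unit of error is therefore the pool, and differences between single mice were not measured.

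Collagens are secreted or membrane-bound proteins of 3 chains wound into a triple helix, in which a glycine recurs at a fixed spacing (the Gly-X-Y repeat). Fibrillar chains build the fibrils of connective tissue, basement membrane chains form the sheets under epithelia and around vessels and the pial surface, and the FACIT chains (fibril-associated collagens with interrupted triple helices) sit on fibrils. Transmembrane collagens stay anchored in the cell that makes them until they are shed. In the brain, fibrils are largely limited to meninges and large vessels, while neurons and glia make several of the non-fibrillar chains.

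What the members share is the repeat. In the coding sequences of the GENCODE models for GRCm38 (mm10), the longest unbroken run of Gly-X-Y held 216 to 344 triplets in the 11 fibrillar chains and no more than 113 triplets in any other chain. The opening 18 codons of that run are printed for the 6 genes on which the class differences below turn, with glycine codons in capitals. These are Col1a2 and Col3a1 (fibrils), Col4a5 (basement membrane), Col8a1 (a short-chain, network-forming collagen), Col25a1 (transmembrane) and Col19a1 (a FACIT).
Col1a2: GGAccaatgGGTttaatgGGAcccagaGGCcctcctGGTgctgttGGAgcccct
Col3a1: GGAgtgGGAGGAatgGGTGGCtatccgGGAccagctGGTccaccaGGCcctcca
Col4a5: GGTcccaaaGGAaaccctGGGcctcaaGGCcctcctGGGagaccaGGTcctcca
Col8a1: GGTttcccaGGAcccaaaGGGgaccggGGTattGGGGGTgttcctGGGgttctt
Col25a1: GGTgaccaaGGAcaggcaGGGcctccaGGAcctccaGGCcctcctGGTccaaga
Col19a1: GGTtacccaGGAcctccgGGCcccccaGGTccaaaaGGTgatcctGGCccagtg
Col1a2 lies at chr6:4504814-4541544 on the plus strand and the printed stretch starts at codon 97. Col3a1 lies at chr1:45311538-45349706 (plus strand, codon 164) and Col4a5 at chrX:141475385-141689234 (plus strand, codon 1249). Col8a1 lies at chr16:57624258-57754737 (minus strand, codon 355), Col25a1 at chr3:130131501-130599877 (plus strand, codon 189) and Col19a1 at chr1:24261890-24587472 (minus strand, codon 833). All 6 stretches are coding exon sequence. The genes differ widely in length: Col1a2 spans 36.7 kb and Col25a1 468.4 kb. Introns were counted, so levels of different genes are compared as CPM (a gene's UMIs relative to all UMIs in that class and pool) per 100 kb of gene, and shares of collagen UMIs are not corrected for length.

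The libraries held 50812605 to 129624583 unique molecular identifiers (UMIs). After filtering, 46412 nuclei remained, 4033 to 9705 per library, with median depths of 5147 to 6754 UMIs. Library pairs shared 5 to 37 nuclear barcodes, at most 0.455% of a library. Nuclei were clustered without any collagen gene and named by markers that include none. This gave 19834 glutamatergic and 5022 GABAergic nuclei, 9769 astrocytes, 3641 oligodendrocyte precursors (OPC), 309 newly formed (NFOL) and 1532 mature oligodendrocytes (MOL), and 2803 microglia. It also gave 1856 nuclei resembling vascular leptomeningeal cells (VLMC), the fibroblasts of the meninges, and 890 resembling arachnoid barrier cells (ABC), the epithelium-like layer of the arachnoid. Macrophage, mural and endothelial nuclei numbered 263, 41 and 65, too few per pool for a test, and 387 nuclei stayed unnamed. VLMC nuclei held 8 of 8 VLMC markers at 10 CPM or more. ABC nuclei held 5 of 8 ABC markers, with Krt18 at 0, and the summed VLMC list still reached 4183 to 5319 CPM in them against 9947 to 12000 CPM in VLMC nuclei, with Lum at 0. Mural markers summed to 399.2 to 553.9 CPM in VLMC and 27.97 to 56.96 CPM in ABC nuclei, and endothelial markers to 217.8 to 364.2 and 0 to 9.715 CPM. The largest other lists were those of astrocytes (1824 to 2264 CPM in VLMC, 4 of 5 markers at 10 CPM or more, and 225.3 to 341.3 in ABC) and NFOL (753.5 to 935.5 and 994.1 to 1312 CPM). Their part in the collagen levels was not tested.

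The pool labelled pplCoA replicate 1 stood between the domains in part of its glutamatergic makeup. Some subclusters placed it with pplCoA, such as that led by Chrdl1 and Ccbe1. There it had 1.33%, against 0.759 and 0.718% in the other pplCoA pools and 7.06 to 32.6% in aplCoA. Other groups placed it between the domains. A cluster led by Ebf1 and Meis1 (2232 nuclei) made up 13.2 to 20.7% of glutamatergic nuclei in the aplCoA pools, 4.17% in pplCoA replicate 1, and 0.0844 and 0.135% in the other pplCoA pools. A subcluster led by Moxd1 and Dcn made up 0.0565 to 0.197% in aplCoA, 2.7% in pplCoA replicate 1, and 19.9 and 20.9% in the other pplCoA pools. The count of domain calls in glutamatergic nuclei is therefore also given without this pool, with values for some genes. The Ebf1 cluster counts as glutamatergic when a marker is taken as present from 10 CPM and stays unnamed at 20 CPM, and the floor of 10 CPM was chosen after the data were seen.

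Collagen UMIs were most abundant in the meningeal nuclei. All 44 genes together took 6552 ± 883 CPM in ABC nuclei and 2795 ± 188 CPM in VLMC nuclei (mean ± SD, n = 6 pools here and in all levels below unless stated). They took 1089 ± 45 CPM in GABAergic and 678.5 ± 56.1 CPM in glutamatergic nuclei. Among glia the totals were 520.7 ± 75.5 in NFOL, 475.8 ± 22.8 in microglia, 415.0 ± 30.9 in OPC, 278.3 ± 24.4 in astrocytes and 138.9 ± 27.4 CPM in MOL. The plot of mean levels by class shows how this total splits among families. VLMC nuclei were rich in fibrillar (799.5 ± 65.7 CPM) and basement membrane chains (868.1 ± 121 CPM). ABC nuclei were rich in transmembrane chains (4337 ± 904 CPM), and GABAergic nuclei in transmembrane (530.5 ± 48.2 CPM) and FACIT chains (390.6 ± 35.7 CPM). Neither the totals nor the family sums are corrected for gene length, and Col25a1 (468.4 kb) held 53.8% of collagen UMIs in ABC nuclei.

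**Figure D1:**
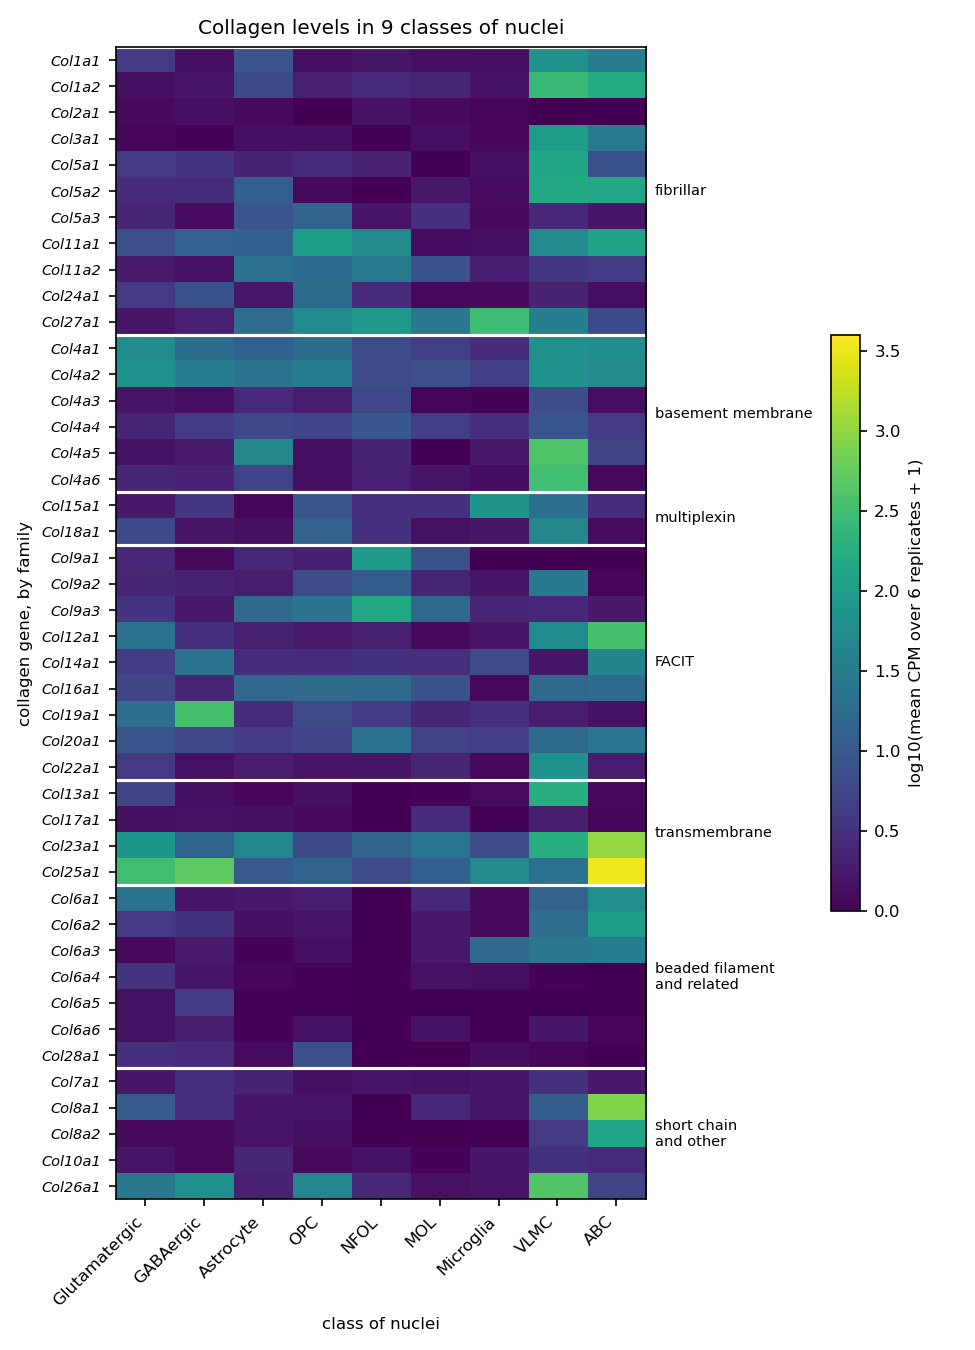
Heat map of the mean level of each of the 44 collagen genes (rows, grouped by family) in 9 classes of nuclei (columns), as log10 of CPM plus 1 averaged over 6 pools. VLMC and ABC columns hold the highest mean for 28 genes, some with pools that overlap the next class. Col19a1 stands out in GABAergic, Col27a1 in microglia and Col9a3 in NFOL nuclei.

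Of the 44 genes, 16 were highest on average in VLMC, 12 in ABC and 5 in NFOL nuclei. Another 3 were highest in OPC, 3 in GABAergic, 2 in glutamatergic, 2 in microglia and 1 in MOL nuclei. For many genes the pools of the highest and second class overlapped, as for Col2a1, counted for NFOL at 0.48 ± 1.18 CPM. This held for meningeal genes too: Col4a1 was higher in VLMC than in ABC in 3 of 6 pools, and Col16a1 higher in ABC than in OPC in 2 of 6. The share of all genes that were highest in the meningeal classes was not counted. For 10 genes, Col2a1, Col4a3, Col4a4, Col6a4, Col6a5, Col6a6, Col7a1, Col10a1, Col17a1 and Col28a1, the mean stayed under 10 CPM in each of the 9 classes. Under 3 UMIs in all were seen for 23 genes in NFOL, 16 in MOL, 14 in ABC, 13 in microglia, 5 in VLMC, 3 in OPC, 1 in astrocytes and 0 in either neuron class. Droplets with under 100 UMIs stand for RNA free in the suspension. Their CPM gives the makeup of that RNA, not the amount of it in a nucleus. A level below it is therefore no sign that a gene is absent from a class. In all 6 pools, 20 genes lay above their free RNA level in VLMC, 13 in ABC, 7 in GABAergic and 4 in glutamatergic nuclei. The share of all genes above it was not counted.

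The fibrillar chains of types I and III were highest in meningeal nuclei. Col1a2, a chain of type I collagen and the main fibril of fibroblasts, ranged from 260.6 to 292.2 CPM over the VLMC pools, with a median of 267.3. In ABC nuclei it ranged from 115.8 to 180.4 (median 164.6), and its mean was 0.376 ± 0.154 in glutamatergic and 0.629 ± 0.360 CPM in GABAergic nuclei. Every VLMC pool lay above every ABC pool, and neurons lay below free RNA, which held 40.4 CPM. Col3a1, the type III chain found with type I in soft tissue, ranged from 74.6 to 112.1 CPM in VLMC (median 95.21) and from 13.43 to 41.29 in ABC nuclei (median 32.7), and 5 UMIs in all were seen in GABAergic nuclei. Col1a1, the partner of Col1a2, ranged from 45.06 to 81.93 CPM in VLMC (median 69.28), and its ABC pools overlapped this range (32.8 ± 12.1). Glutamatergic nuclei held 3.40 ± 1.82 CPM of Col1a1, below free RNA (31.8), yet made up 47.8% of its UMIs, and they are the most numerous class. Free RNA held up to 140 CPM of Col1a2 and 146 CPM of Col3a1 in a single library, the latter above each VLMC pool. Per 100 kb of gene, the order in VLMC nuclei was Col1a2 (743.8 CPM per 100 kb), Col1a1 (394.9) and Col3a1 (242.7), so type I chains led the fibrillar group in level.

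Summed per pool and compared with neurons (glutamatergic plus GABAergic) within the same pools, 20 collagens were seen in enough nuclei to be tested in VLMC. Of these, 15 were higher in VLMC, 3 were lower and 2 did not pass (edgeR quasi-likelihood test, adjusted p under 0.05). This contrast calls 78.8% of all genes tested. A gene entered when seen in enough nuclei of either side. Many collagens entered only through VLMC, among them the 10 with the largest differences toward VLMC named below. Col19a1, Col25a1 and Col6a1 entered only through neurons. The split was therefore set in part by this filter, and the direction and p-value of these genes are no independent support. With no filter, 26 of the 44 collagens were higher and 10 lower. Col3a1 differed most (log2 difference 9.35, SE 0.19, edgeR adjusted p = 6.5e-14), followed by Col4a5 (9.15), Col1a2 (9.03) and Col4a6 (7.45). The fibrillar Col5a2 (5.92), Col5a1 (5.18) and Col1a1 (4.41), which regulate or build type I fibrils, followed with Col13a1 (5.30), a transmembrane collagen of cell junctions. Col22a1 (4.39) and Col9a2 (3.98), both FACITs, completed the 10 largest. The other 5 higher genes, Col26a1, Col18a1, Col11a1, Col23a1 and Col12a1, differed by 3.42 to 1.16. Those that fell were Col19a1 (-6.38, SE 0.23, edgeR adjusted p = 1.39e-11), Col25a1 (-4.28) and Col6a1 (-0.52, SE 0.22, edgeR adjusted p = 0.0415). The Col6a1 groups overlapped, and its call was lost in 8 of 18 alternative analyses, where the adjusted p reached 0.16. Scaling by total UMIs moves all genes in this contrast by 0.316 on the log2 scale and gave 16 higher and 2 lower, with Col4a1 called and Col6a1 no longer called. The differences of Col19a1 and Col25a1 were smaller under other processing. With doublets kept Col19a1 was at -3.29 and Col25a1 at -2.83, and with each nucleus classed by its own markers Col25a1 was at -1.37.

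**Figure D2:**
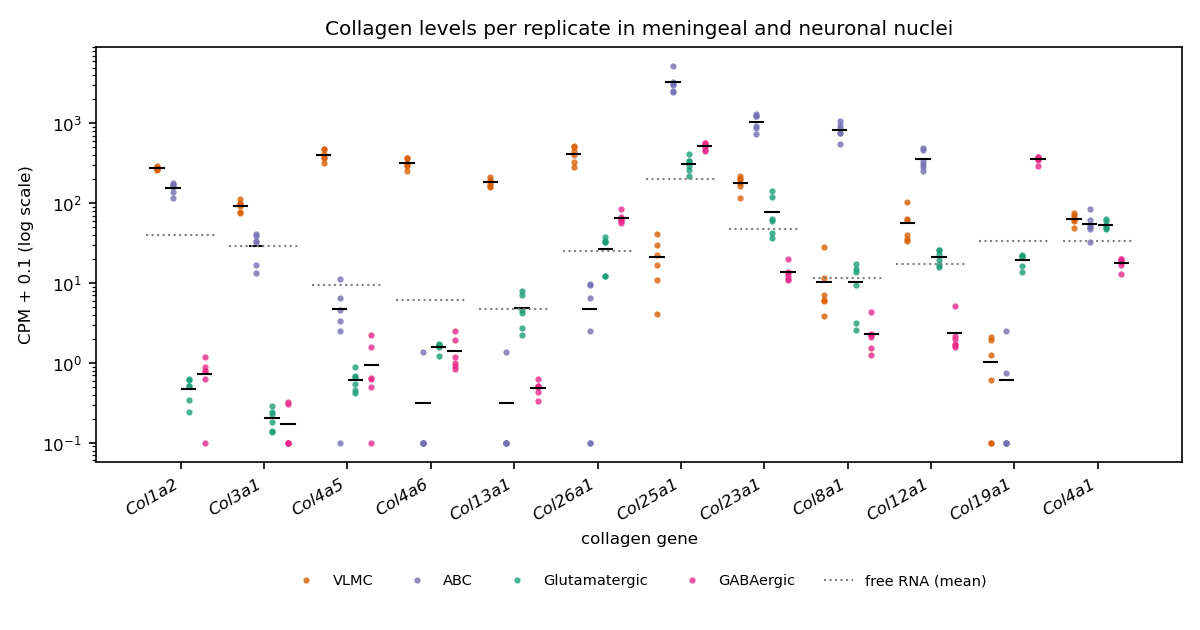
Level of 12 collagen genes in each of 6 pools (points) in VLMC, ABC, glutamatergic and GABAergic nuclei, as CPM plus 0.1 on a log axis, with the mean as a black bar and the mean of free RNA as a dotted grey line. Col1a2, Col3a1 and Col4a5 are lowest in the neuronal classes, Col4a6 lowest in ABC nuclei, Col25a1 and Col8a1 highest in ABC nuclei, and Col19a1 highest in GABAergic nuclei.

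The basement membrane genes come in pairs. All 6 type IV genes lie head to head on their chromosomes: Col4a1 and Col4a2 overlap by 22 bases at their starts, Col4a3 and Col4a4 start with 71 bases between them, and Col4a5 and Col4a6 with 1308 bases between them. Col4a5 ranged from 323.5 to 473.1 CPM in VLMC (median 398.3) and Col4a6 from 251.5 to 372.1 (median 310.8). Both were nearly absent from ABC nuclei, with 15 and 2 UMIs in all. Astrocytes, whose endfeet rest on the pial and vascular basement membranes, held Col4a5 at 42.9 ± 6.31 CPM, above free RNA in 6 of 6 pools, and Col4a6 at 4.38 ± 1.16, above free RNA in 2 of 6. Col4a1 and Col4a2, the chains of nearly every basement membrane, were spread more evenly. Col4a1 had a mean of 63.7 ± 8.94 CPM in VLMC, 54.6 ± 17.1 in ABC and 53.5 ± 6.27 in glutamatergic nuclei, and Col4a2 had 66.9 ± 17.1, 52.0 ± 13.1 and 67.9 ± 8.84 CPM. Neither passed the test between VLMC and neurons (Col4a1 log2 difference 0.10, edgeR adjusted p = 0.305, and Col4a2 -0.21, edgeR adjusted p = 0.155, the latter changing sign when scaled by total UMIs). Glutamatergic nuclei supplied 86.4% of all Col4a1 and 83.4% of all Col4a2 UMIs. They were also 42.7% of all nuclei and the deepest class, with a median of 12290 UMIs. Free RNA held 33.8 CPM of Col4a1 and 55.7 CPM of Col4a2 on average. The multiplexins, which carry heparan or chondroitin sulphate chains at basement membranes, split: Col18a1 was highest in VLMC (44.9 ± 8.04 CPM) and Col15a1 in microglia (71.2 ± 8.94 CPM).

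VLMC nuclei formed 2 clusters with different collagens, given as pooled levels with no test. The cluster of 1059 nuclei led by Aox3, Dcdc2a and Lamc3 held Col4a6 at 574.2 CPM, Col4a5 at 639.6, Col1a2 at 396 and Col22a1 at 123.4 CPM. The cluster of 797 nuclei led by Fam180a, Spo11 and Rspo2 held them at 74.35, 183, 167.1 and 20.58 CPM, but Col5a1 at 185.7 against 42.13 CPM. Col26a1 was similar in both (438.4 and 374.8 CPM). Among the 7 subclusters of VLMC, Col4a6 ran from 16.9 to 675.8 CPM, a wider spread than that of Col26a1 (308 to 530.4).

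ABC nuclei carried another set. Between the meningeal classes 22 collagens were tested, of which 8 were higher in ABC, 11 lower and 3 not called, where the contrast calls 54.2% of all genes. Here too a gene entered through either class. Among others, Col25a1, Col8a1 and Col8a2 entered only through ABC, and Col4a6, Col13a1, Col22a1, Col9a2 and Col18a1 only through VLMC, so the filter set part of the split. With no filter, 9 of 41 were higher and 15 lower, a count not set against the share of all genes called in that fit. Col25a1, a neuronal transmembrane collagen also known from amyloid plaques, ranged from 2465 to 5263 CPM in ABC (median 3079) and from 4.032 to 40.71 in VLMC (median 19.78). The pools of the classes did not overlap, and the log2 difference was 7.25 (SE 0.23, edgeR adjusted p = 2.49e-17). It was also above both neuron classes in every pool. Col8a1 ranged from 560.4 to 1074 CPM in ABC (median 827.7) against a mean of 10.4 ± 8.95 in VLMC (log2 difference 6.0, SE 0.21), and its partner Col8a2 differed by 5.24 (SE 0.30). The other genes higher in ABC were the FACIT Col12a1 (2.69), the transmembrane Col23a1 (2.46), the beaded filament chains Col6a2 (2.44) and Col6a1 (2.04), and the fibrillar Col11a1 (1.19). With each nucleus classed by its own markers the difference was 4.32 for Col25a1, 4.55 for Col8a1 and 3.51 for Col8a2, and with doublets kept 5.68 for Col25a1.

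Among the genes lower in ABC, Col4a5 fell by 6.52 on the log2 scale, Col26a1 by 5.82, Col5a1 by 3.90, Col3a1 by 1.99, Col1a1 by 1.10 and Col1a2 by 0.80. The other 5 rested on 1 or 2 UMIs in ABC nuclei, so the ratio of pooled CPM is given with its 95% counting interval. For Col4a6 (2 UMIs) the VLMC level was 593 times that of ABC (164 to 4900), and for Col13a1 (2 UMIs) 336 times (92.7 to 2770). For Col22a1 (1 UMI) it was 264 times (47.2 to 10400), for Col9a2 (1 UMI) 116 times (20.7 to 4620) and for Col18a1 (2 UMIs) 83.1 times (22.8 to 689). Col4a1, Col4a2 and Col5a2 were not called (edgeR adjusted p = 0.137, 0.129 and 0.298). Beside the ABC nuclei, an unnamed cluster of 164 nuclei led by Dapl1, Dpp4, Fn1 and Prg4 held Col25a1 at 3460 CPM and Col23a1 at 1150 CPM but Col8a1 at 7.451 CPM, against 716.9 CPM in ABC nuclei pooled the same way. It took 0.556% of aplCoA and 0.063% of pplCoA nuclei, and 44.5% of it came from a single pool.

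In neurons 9 (glutamatergic) and 8 (GABAergic) of the 44 genes reached 10 CPM, and Col25a1 took the largest share of collagen UMIs in both classes. It held 45.8% of collagen UMIs in glutamatergic and 47.6% in GABAergic nuclei, ranging from 217.4 to 413.9 CPM (median 312.4) and from 451.1 to 572.9 CPM (median 518.7). Free RNA held 203 CPM on average (136 to 256), and microglia, taken as a class that should lack it, 47.7 ± 11.6 CPM. Each pool of both neuron classes lay above the free RNA of the same pool. Nuclei of at least 2000 UMIs were thinned to that depth and the others left out. Among the thinned nuclei, 36.4% of glutamatergic, 32.5% of GABAergic, 85.3% of ABC and 7.17% of microglial nuclei had at least 1 Col25a1 UMI. Over all nuclei without thinning these shares were 72.4, 49.4, 89.3 and 10.2%. Per 100 kb of gene, Col6a1 led in glutamatergic nuclei (121.7 CPM per 100 kb, Col25a1 66.1), but it was above free RNA in only 3 of 6 pools. In GABAergic nuclei Col25a1 (110.2) and Col19a1 (109.3 CPM per 100 kb) stood level.

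Col19a1, a FACIT made by interneurons and linked to synapse formation, lay on the GABAergic side. It ranged from 293.7 to 378.5 CPM over the GABAergic pools (median 367.7) and from 13.56 to 22.46 over the glutamatergic pools (median 21.24), which all lay below the free RNA of the same pools (mean 33.2 CPM). GABAergic nuclei supplied 73.9% of its UMIs from 5022 of the 46412 nuclei. All 9 collagens tested between the neuron classes were called, 5 higher in glutamatergic and 4 higher in GABAergic nuclei, where the contrast calls 73.5% of all genes. A gene entered when seen in 10% of the nuclei of either class. Col6a1, Col12a1 and Col23a1 entered only through glutamatergic and Col14a1 only through GABAergic nuclei, the class where each is high, so the count of calls was set in part by this filter. With no filter, 30 of the 44 collagens were called. Col6a1 differed by 4.94 (SE 0.21, edgeR adjusted p = 9.97e-08), Col12a1 by 3.6 (SE 0.18), Col23a1 by 2.51 (SE 0.31), Col4a1 by 1.75 (SE 0.06) and Col4a2 by 1.22 (SE 0.05). Toward GABAergic nuclei, Col19a1 differed by -4.04 (SE 0.10, edgeR adjusted p = 8.14e-09), Col14a1 by -2.71 (SE 0.17), Col26a1 by -1.23 (SE 0.21) and Col25a1 by -0.60 (SE 0.14). With doublets kept, Col6a1 differed by 3.68 and Col12a1 by 2.86, and without the Ebf1 cluster Col14a1 differed by -3.34. GABAergic pools lay below free RNA for Col4a1, Col4a2, Col6a1, Col12a1 and Col23a1, and glutamatergic Col26a1 was above it in 3 of 6 pools. Col24a1, a fibrillar chain with a short helix, was seen in too few nuclei for the test. Its level was 6.98 ± 3.00 CPM in GABAergic and 3.14 ± 0.842 in glutamatergic nuclei, with free RNA at 3.17, and it was highest in OPC (16.8 ± 1.58).

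**Figure D3:**
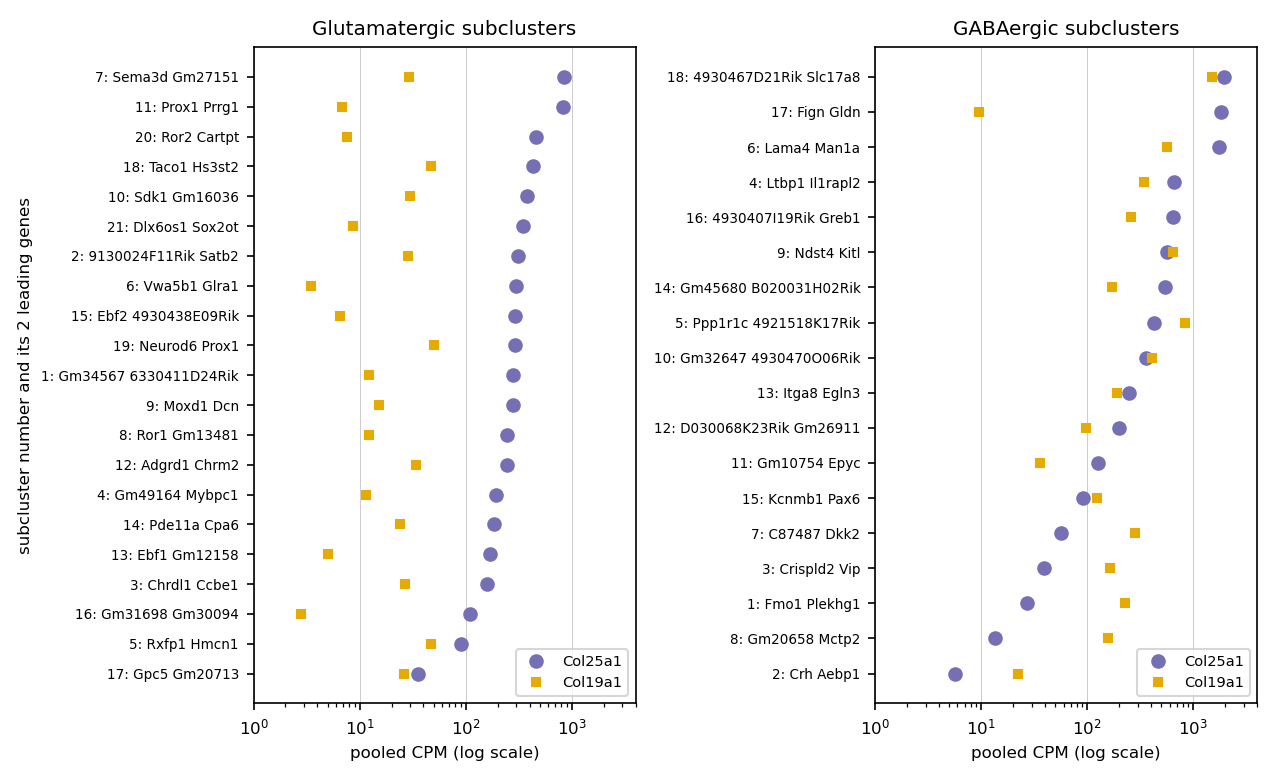
Pooled level of Col25a1 and Col19a1 (CPM, log axes) in 21 glutamatergic and 18 GABAergic subclusters of at least 100 nuclei, 1 point each. GABAergic subclusters reach 1971 CPM of Col25a1 and 1509 CPM of Col19a1, and no glutamatergic subcluster passes 50.7 CPM of Col19a1.

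Within the neuron classes levels also varied between subclusters, given here as pooled levels with no test. Among 18 GABAergic subclusters Col19a1 ran from 9.652 to 1509 CPM (median 208.2) and Col25a1 from 5.683 to 1971 CPM (median 302.1). The subcluster highest in both (116 nuclei) and that lowest in Col19a1 (119 nuclei, Col25a1 at 1817 CPM) held at least 20 nuclei in only 2 pools. A subcluster of 354 nuclei present in 5 pools held Col25a1 at 1691 to 1801 CPM and Col19a1 at 472.7 to 758.9 CPM per pool. Other GABAergic subclusters reached 311 CPM of Col26a1, 161.8 of Col14a1, a FACIT on collagen fibrils, and 88.27 of Col24a1. Among 21 glutamatergic subclusters Col25a1 ran from 35.31 to 842 CPM, Col23a1 from 5.149 to 232.8 and Col19a1 from 2.804 to 50.7 CPM. One subcluster held both the highest Col12a1 (160.8 CPM) and the highest Col26a1 (151.3 CPM), and others reached 70.18 CPM of Col8a1 and 78.48 CPM of Col11a1. A glutamatergic subcluster of 148 nuclei was led by the GABAergic genes Dlx6os1 and Gad2, with Slc17a7 at 14.8 CPM and Slc17a6 at 7.38 CPM, so its markers go against the class name, and it held none of the values just given.

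Among glia, microglia and NFOL held the highest level of some chains, while those most abundant in astrocytes and MOL were higher in other classes. Col27a1, a fibrillar collagen first known from cartilage, ranged from 283.4 to 316.3 CPM in microglia (median 305.4) and took 63.6% of their collagen UMIs. NFOL nuclei came next at 85.6 ± 17.1 CPM, with no overlap. NFOL nuclei were highest for Col9a3 (149.6 ± 15.4 CPM) and Col9a1 (87.7 ± 28.2), chains of the type IX FACIT, both falling to at most 22.4 CPM on average in the class next in order. Col9a3 overlaps Tcfl5 on the opposite strand. In OPC the largest share of collagen UMIs, not corrected for length, fell to Col11a1, at 94.56 to 112.9 CPM (median 102), though ABC pools overlapped this range. With each nucleus classed by its own markers, Col11a1 in OPC was at 60.58 CPM. In astrocytes the largest shares fell to Col23a1 (42.7 ± 10.9 CPM), above free RNA in 2 of 6 pools, and Col4a5, and in MOL to Col27a1 (25.6 ± 5.73 CPM). Per 100 kb of gene, Col9a3 was highest in OPC (91.9 CPM per 100 kb) and MOL (62.75), and Col11a2, a fibrillar chain, in astrocytes (80.88).

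Between domains, glutamatergic nuclei differed in 6 of 10 collagens with enough counts (n = 3 pools per domain), of which 2 were higher in aplCoA and the other 4 in pplCoA, where the contrast calls 20.9% of all genes. Col8a1 was 13.74, 14.74 and 17.06 CPM in the aplCoA pools and 9.476, 3.03 and 2.498 CPM in pplCoA (log2 difference 1.46, SE 0.41, edgeR adjusted p = 0.0385). It was seen in 8.6% of all glutamatergic nuclei, so it reached the 10% limit for the test only through aplCoA, where it is high. The pplCoA value nearest to aplCoA was that of replicate 1. Col12a1 was 26.06, 26 and 22.94 against 19.43, 16.85 and 15.6 CPM (0.45, SE 0.10, edgeR adjusted p = 0.0162). Mean free RNA was 11.58 CPM for Col8a1, above every pplCoA pool, and 17.43 CPM for Col12a1, within the range of the pplCoA pools.

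Col23a1 was lower in aplCoA, at 60.65, 36.97 and 42.53 CPM against 63, 120.4 and 143.6 CPM (-1.30, SE 0.29, edgeR adjusted p = 0.017), and replicate 1 again came nearest the other domain. Col6a1 was 14.34, 10.07 and 20.64 against 29.57, 25.77 and 26.45 CPM (-0.93, SE 0.21, edgeR adjusted p = 0.017). The paired chains of type IV moved together and by less: Col4a2 was 62.24, 59.07 and 60.81 against 79.84, 77.27 and 68.35 CPM (-0.39, SE 0.07, edgeR adjusted p = 0.00782), and Col4a1 was 49.78, 48.27 and 47.95 against 62.83, 59.59 and 52.79 CPM (-0.35, SE 0.07, edgeR adjusted p = 0.0137). Mean free RNA was 47.29 CPM for Col23a1, within the range of the aplCoA pools, and 20.82 CPM for Col6a1, above every aplCoA pool. For Col4a2 (55.7 CPM) and Col4a1 (33.77 CPM) it lay below every pool. Col26a1 (0.79, edgeR adjusted p = 0.143), Col19a1 (0.28, 0.191), Col25a1 (0.27, 0.326) and Col20a1 (-0.18, 0.398) were not called.

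These calls depended on the pools. Without pplCoA replicate 1, 8 of 10 collagens were called, with Col8a1 at 2.35 and Col23a1 at -1.58, and genes called overall rose too, from 2031 to 2395 of 9709. Leaving out another pool lost calls: aplCoA replicate 1 left 2, aplCoA replicate 2 and pplCoA replicate 3 left 3 each, and pplCoA replicate 2 left only Col4a2 called, with adjusted p of the lost genes from 0.0518 to 0.121. Col8a1 was lost in each of these and without aplCoA replicate 3. Col4a2 was the only gene called in each of the analyses that left out 1 pool. The count of all genes called also moved with the pool left out, over the range given in the section on processing. With the Ebf1 cluster left unnamed (marker floor 20 CPM), 4 of 9 were called, beside 1512 of 9723 genes. There Col4a1 was at -0.21 (edgeR adjusted p = 0.0974) and Col8a1 was seen in too few nuclei for a test.

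**Figure D4:**
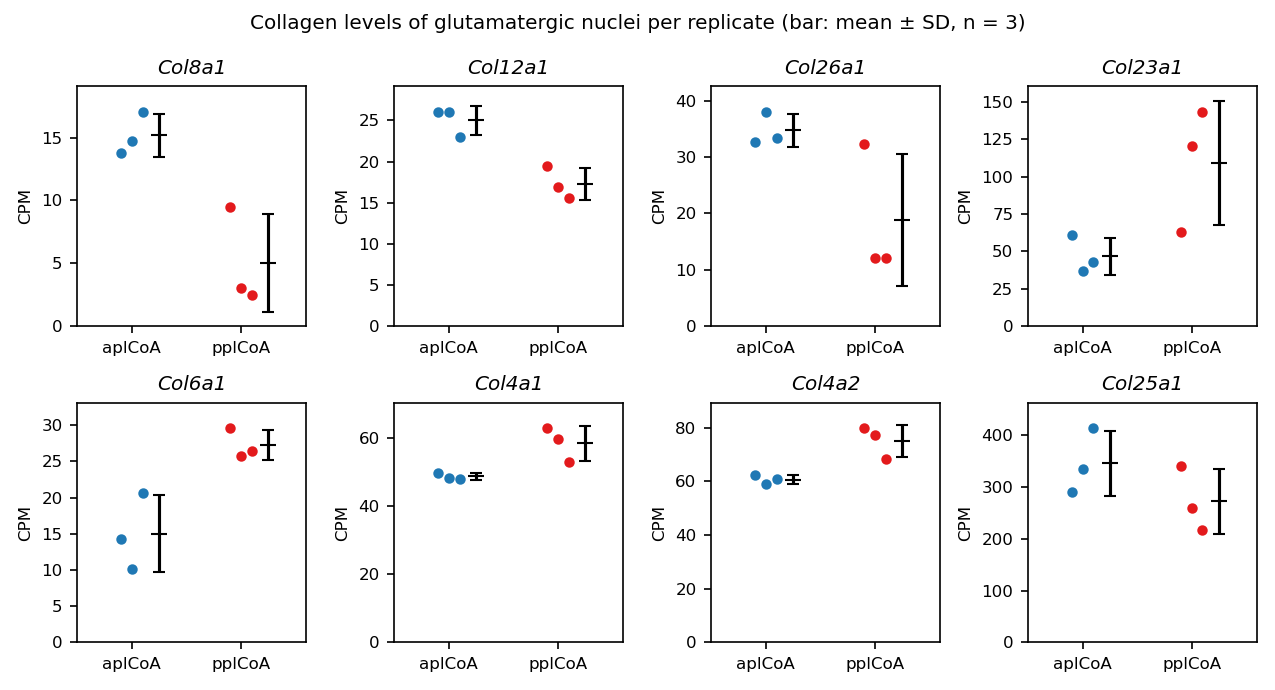
Level (CPM) of 8 collagen genes in the glutamatergic nuclei of each pool (points), aplCoA beside pplCoA, with the mean and SD of 3 pools. Col8a1 and Col12a1 are higher in aplCoA, Col23a1, Col6a1, Col4a1 and Col4a2 higher in pplCoA, and the domains overlap for Col25a1.

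The makeup of the glutamatergic nuclei moved with the domains, and pooled levels were therefore compared within the 18 subclusters that held at least 20 nuclei in both. Col4a2 was lower in aplCoA in 15 of 18, Col4a1 in 14, Col6a1 in 12 and Col23a1 in 12. Col12a1 was higher in aplCoA in 11 of 18 and Col8a1 in 10. With each subcluster weighted equally, the log2 ratio of aplCoA to pplCoA was -0.163 for Col4a2, -0.199 for Col4a1, -0.176 for Col6a1 and -0.257 for Col23a1. It was 0.054 for Col12a1 and -0.04 for Col8a1. For all 6 genes the value lay nearer to 0 than in the whole class. These are pooled nuclei without replicate error and were not tested. In the subclusters led by Rxfp1, Vwa5b1, Ebf1 and Ebf2 the pplCoA nuclei came almost wholly from pplCoA replicate 1. In those led by Ror1 and by Gm31698 the aplCoA nuclei came mostly from aplCoA replicate 1. The comparison was not made without either of these pools.

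**Figure D5:**
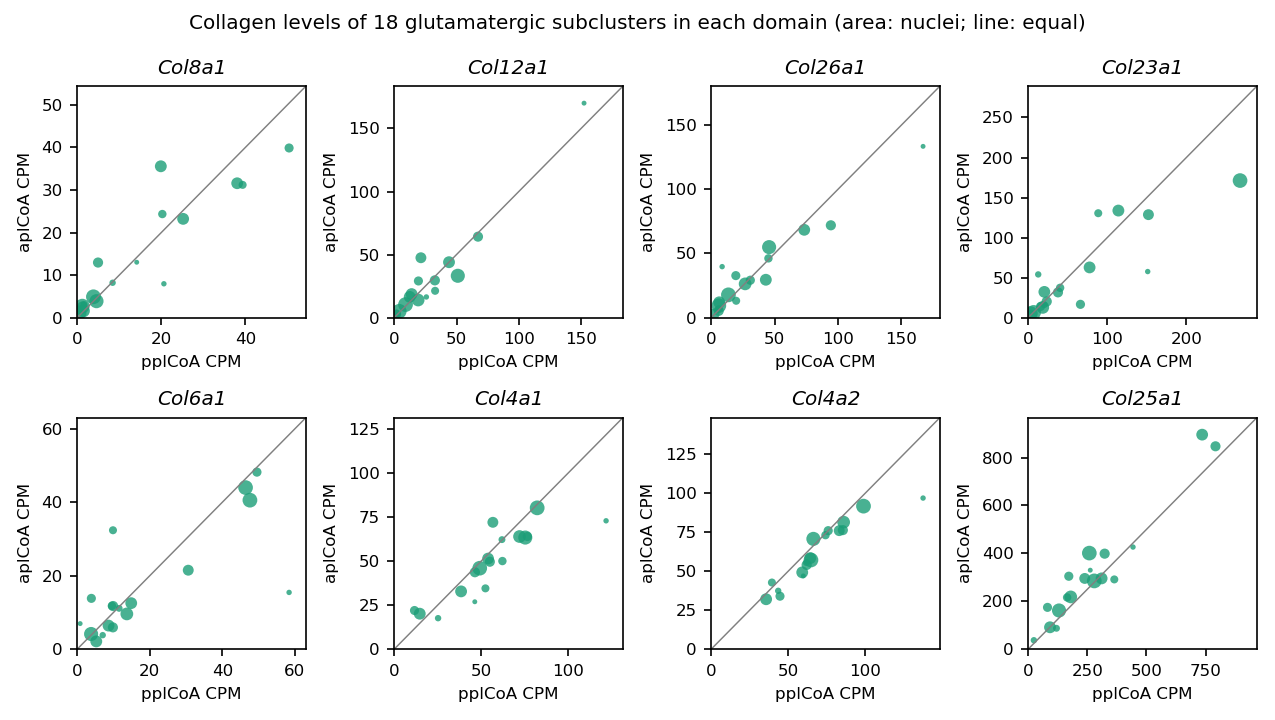
Pooled level of 8 collagen genes in aplCoA against pplCoA within 18 glutamatergic subclusters (CPM on linear axes, point area by number of nuclei, line of equal level). Most points lie near the line, with Col4a2 on the pplCoA side in 15 of 18 subclusters.

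In the other 6 classes fitted, no collagen passed the test between domains (edgeR), and microglia and NFOL were not fitted. GABAergic nuclei had 6 tested, where the contrast calls 10.3% of all genes, and 1 at an unadjusted p under 0.05 (Col14a1, 0.40). Astrocytes had 2 tested (0.617% of genes called) and 1 at that limit (Col23a1, 0.41), OPC 4 tested (6.53%) and 1 at that limit (Col26a1, -0.33), and MOL none tested (2.35%). VLMC had 18 tested (0.0174% of genes called). Of these, Col27a1 (-0.92), Col9a2 (0.74) and Col1a1 (0.51) were under 0.05 unadjusted, and Col27a1, seen in 9.05% of VLMC nuclei, entered only through pplCoA, where it is high. For Col1a2 in VLMC the domains had 281.3 ± 14.5 and 265.1 ± 4.05 CPM, and for Col3a1 95.7 ± 17.9 and 89.5 ± 13.9 CPM (n = 3). ABC had 15 tested (0.118%), with Col25a1 (0.58), Col23a1 (-0.53) and Col12a1 (-0.50) under 0.05 unadjusted. ABC nuclei numbered 40 to 71 in 4 of the pools, and the share of all genes called in both meningeal classes was low too.

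The test of whether the domain difference itself differed between neuron classes called 2 of 9 collagens, where it calls 5.07% of all genes. The domain change of Col26a1 was 0.79 in glutamatergic and -0.14 in GABAergic nuclei (difference 0.99, SE 0.21, edgeR adjusted p = 0.0291), and the difference for Col14a1 was 0.90 (SE 0.16, edgeR adjusted p = 0.0167). Col14a1 was low in glutamatergic nuclei, at 4.294, 5.158 and 5.161 against 2.424, 1.212 and 1.785 CPM, above free RNA in only 1 of 6 pools, and it entered this test only through GABAergic nuclei. Col23a1, called in glutamatergic nuclei, did not pass this test (-1.37, edgeR adjusted p = 0.0769). Without pplCoA replicate 1, 4 collagens were called, with Col26a1 at 1.36, beside 1055 of all genes against 493 with it. Without aplCoA replicate 1, aplCoA replicate 3 or pplCoA replicate 2 none was called, and without aplCoA replicate 2 or pplCoA replicate 3 only Col14a1 was. These counts are not set against the share of all genes called in those fits. Without the pool as a block neither Col26a1 nor Col14a1 passed (edgeR adjusted p = 0.383 and 0.189). Without the Ebf1 cluster Col14a1 was at 0.18 (edgeR adjusted p = 0.75). With glutamatergic subclusters weighted equally, the log2 ratio of aplCoA to pplCoA was -0.032 for Col26a1 and 0.147 for Col14a1. With GABAergic subclusters weighted equally it was -0.005 and -0.064. These pooled ratios were not tested.

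The enzymes and partners of collagen were described from a list of 67 genes. They had been used in clustering, so their differences between classes carry no test and are given for single genes, with signs counted for some lists. Among collagen-binding matrix genes, the log2 difference of VLMC from neurons was 6.64 for Lama1, 6.74 for Lama2, 8.48 for Nid1 and 6.14 for Dcn. Serpinh1, the collagen chaperone, differed by 6.69, Plod2, a lysyl hydroxylase, by 3.99 and Adamts2, which trims fibrillar propeptides, by 3.50, while Adamts3 (-4.86) and Colgalt2 (-4.86) were on the neuronal side. Of the 12 hydroxylation and folding genes seen in enough nuclei, 6 had a positive difference (median 0.0658). Between ABC and VLMC nuclei Fn1 differed by 4.82, but only 2 of the 14 collagen-binding matrix genes compared had a positive difference (median -1.69). Lama1 was at 537.7 CPM in VLMC and 0.107 CPM in ABC nuclei. Between glutamatergic and GABAergic nuclei Adamts2 differed by 3.08 and the collagen receptor Ddr2 by -5.51. There 4 of the 6 receptors and binding partners compared had a positive difference. Between domains, 6 of 28 were called in glutamatergic nuclei, near the 20.9% of all genes called there, 3 in each direction, including Timp2 (0.55), P4ha1 (0.28), Timp4 (-0.64), Timp3 (-0.56) and Colgalt2 (-0.51). In GABAergic nuclei 2 of 23 were called, near the background of 10.3%, namely Timp3 and Timp4, both lower, and in astrocytes, OPC, MOL, VLMC and ABC none of 16, 17, 14, 34 and 30. For a domain change that differed between neuron classes 1 of 29 was called, no more than the background of 5.07%. This was Lama1, a laminin chain (1.51, edgeR adjusted p = 0.0272), at 1.81 CPM in glutamatergic and 20.4 CPM in GABAergic nuclei.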

How the data were processed

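Nuclei were sorted on DRAQ7, a DNA stain, and captured with 10x Genomics 3' chemistry. The values are whole-number UMI counts per gene and droplet, deposited by the authors before cell filtering. Per the labels, they were made with Cell Ranger 5.0.0 against mm10, and introns were included by the study's methods. Col26a1, Col20a1 and Col24a1 overlap another annotated gene on their own strand, so their counts are uncertain. Barcodes with at least 1000 genes (52201) were filtered on UMIs and on mitochondrial and ribosomal shares (50535 left), 4123 predicted doublets were removed with Scrublet as run by scanpy 1.11.5, and nuclei were clustered without collagen genes (5000 variable genes, 50 components, resolution 1.0). A class was named where at least 3 markers reached 10 CPM. The score of its marker list also had to reach 0.5 and to lead that of the next class by 0.5. The members and all gene lists were chosen with earlier results of these data known.

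UMIs were summed per pool and class and fitted with edgeR 4.0.16 (R 4.3.3; TMM, quasi-likelihood, 2-sided) over all genes seen in at least 10% of nuclei on either side. Class contrasts carried the pool as a block. P-values were adjusted by Benjamini-Hochberg over all genes fitted, and genes were called under 0.05. The sums come from 1 pool of mice each, so p-values measure a spread between pools. In domain contrasts this is the spread of levels. In contrasts with the pool as a block it is the spread of the class difference within a pool. Intervals cover counting error only. Free RNA was taken from droplets with under 100 UMIs. Named genes were all called collagens up to 10 per direction, plus Col1a1, Col1a2, Col3a1, Col4a1, Col4a2, Col19a1, Col24a1, Col25a1 and the highest collagen of each class. Scripts were tested on simulated data. Alternatives were DESeq2 1.42.0, edgeR's likelihood ratio test, other size factors, no filter, a stricter call, doublets kept, resolution 2.0, classes from each nucleus's own markers, either library of aplCoA replicate 1 alone, each pool left out, and the block. A marker floor of 20 CPM was added after the data were seen. Replicate numbers were not taken to pair the pools of the domains. Gene models came from GENCODE M21, in which all 44 genes were matched, while the counts were made with another GENCODE release.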

Additional observations from a re-analysis of the deposited data

Results flagged for a closer look

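The domain change of Col26a1 differed between glutamatergic and GABAergic nuclei by 0.99 on the log2 scale (SE 0.21, edgeR adjusted p = 0.0291) by a test of that difference. Glutamatergic nuclei held 32.73, 38.11 and 33.47 CPM in aplCoA and 32.31, 12 and 12.06 CPM in pplCoA, where replicate 1 sat with aplCoA. GABAergic nuclei held 57.25 to 83.8 CPM over all pools. The domain change of Col14a1 differed in the same test by 0.90 (SE 0.16, edgeR adjusted p = 0.0167), with 1.212 to 5.161 CPM in glutamatergic and 16.02 to 28.82 CPM in GABAergic nuclei. The glutamatergic values were above free RNA in only 1 of 6 pools, and Col14a1 entered the test only through GABAergic nuclei. With subclusters weighted equally, the log2 ratio of aplCoA to pplCoA for Col26a1 was -0.032 in glutamatergic and -0.005 in GABAergic nuclei. For Col14a1 it was 0.147 and -0.064. These are pooled levels and were not tested, so a part of makeup in both results cannot be told apart.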

How the results depend on the processing

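No called value changed its sign under the alternatives listed here, though Col8a1 between domains was at -0.04 with glutamatergic subclusters weighted equally. Other size factors changed the sign of 4 values that were not called, Col4a2 (VLMC against neurons) and, between domains, Col19a1 (GABAergic), Col11a1 (OPC) and Col4a5 (VLMC). With no filter on low counts the collagens called of 44 rose to 36 (VLMC against neurons, 26 higher and 10 lower, beside 13936 of 28033 genes), 30 (glutamatergic against GABAergic, 20 and 10, beside 11776 of 27927), 15 (domains in glutamatergic, 7 and 8, beside 3455 of 27728), 3 (GABAergic, beside 1481 of 24946), 1 (OPC, 713 of 22471), 1 (ABC, 60 of 19118) and 9 (domain change between neuron classes, 1320 of 27927). With an adjusted p under 0.01 and a 1.5-fold change, 0 were called between domains in glutamatergic nuclei and 0 for the domain change between neuron classes. With classes from each nucleus's own markers 2 were called between domains in OPC (beside 853 of 7531 genes) and 1 in VLMC (3 of 5969), Col11a1 in OPC was 60.58 CPM and Col9a3 in NFOL 108.6 CPM. With doublets kept, Col27a1 in microglia was 288.6 CPM. At the marker floor of 20 CPM, 1 was called for the domain change between neuron classes (256 of 9771 genes). Leaving out 1 pool gave 1 to 8 calls between domains in glutamatergic nuclei (beside 846 to 2395 of 9709 genes), 0 to 1 in GABAergic nuclei (1 without pplCoA replicate 1) and 0 to 4 for the domain change between neuron classes. The ranges for GABAergic nuclei and for the domain change are not set against the share of all genes called.

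No replicate block in the last contrast left 0 called, and in the class contrasts it left 17, 19 and 9. The replicate number as a block between domains gave 6 in glutamatergic and 0 in the other 6 classes fitted. Pools with the same number deviated together with correlations of 0.087, -0.0664 and 0.124, so the numbers were not taken as pairs. Among nuclei of at least 2000 UMIs thinned to that depth, Col25a1 was seen in 36.4% of glutamatergic, 32.5% of GABAergic and 85.3% of ABC nuclei. The share was 6.93% for Col23a1 in astrocytes, 18.2% for Col11a1 in OPC and 22.7% for Col9a3 in NFOL. It was 4.14% for Col27a1 in MOL and 41.5% in microglia, and 47.1% for Col26a1 in VLMC. Of 18 alternatives per contrast, the count of calls stayed within 1.5 times in 17 for VLMC against neurons, 18 for ABC against VLMC and 17 for glutamatergic against GABAergic, but in only 12 for domains in glutamatergic nuclei (0 to 15 calls) and 8 for the domain change between neuron classes (0 to 9).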
